A study of Mus musculus with 9 samples.

Results

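The interferon response genes examined here are 47 genes out of 36528 in the deposited tables, taken by symbol from a list of interferon receptors, signalling factors, nucleic acid sensors and antiviral effectors. Their values were compared in RNA-seq of brain myeloid cells, mostly microglia, that were sorted by Cd11b at an age of 11 to 12 months. In the Tau-P301L group, 2 female and 3 male libraries (5 in all) came from transgenic mice that express tau with P301L, a mutation of familial frontotemporal dementia. Their non-transgenic littermates, called wild-type, gave 2 female and 2 male libraries (4 in all). The sources used here do not give the transgene's promoter, the background strain or the number of mice behind a library. Libraries are named by group and by a number in sample order. Nothing states that they came from separate mice, so the tests measure only the spread between these samples.

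Type I interferons bind a receptor of the chains Ifnar1 and Ifnar2, and the receptor's kinases then phosphorylate signalling factors such as Stat2. Together with Irf9 these form a complex that binds the interferon-stimulated response element (ISRE) and switches on a large set of genes, among them the Ifit, Oas, Mx and guanylate-binding families. Cells also make interferon after sensors such as Ifih1 meet foreign or misplaced nucleic acid, and microglia are a known source and target of interferon in the diseased brain.

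The libraries held 1.49 to 3.79 M reads counted in genes, and the members took 0.105 to 0.206% of them. At this depth 3 reads correspond to 0.824 to 2.08 CPM, the scale used for levels below (counts scaled to library size after TMM normalisation). The microglial markers P2ry12, Tmem119, Cx3cr1 and others in a list of 10 summed to 10809 to 14704 CPM in wild-type and 8578 to 15233 CPM in Tau-P301L libraries. Of 8 endothelial markers Cldn5 had no read in any library, but Pecam1 was at 4.66 to 37.4 CPM. The 8 summed to 19.3 to 33.8 CPM in wild-type and 13.6 to 39.5 CPM in Tau-P301L libraries. Among markers of T and NK cells Cd3e and Nkg7 had no read, while Cd3d and Klrb1c reached at most 1.52 CPM. Oligodendrocyte markers summed to 506 to 694 CPM in wild-type and 325 to 1428 CPM in Tau-P301L libraries. For astrocyte markers the sums were 308 to 414 and 307 to 664 CPM, and for neuron markers 83.9 to 170 and 61.4 to 156 CPM. Neutrophil markers summed to 253.5 CPM in Tau-P301L library 4 and 72.1 CPM in wild-type library 3, against at most 19.5 CPM elsewhere. Tau-P301L libraries 3 and 5 had the lowest mean correlations with the other libraries (0.844 and 0.835, against 0.864 to 0.896). The leading members are given below with and without these libraries.

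Of the 47 members 39 passed the filter on low counts. A member that is high in only 1 group can pass through that group, so the 39 are not a neutral sample of the list. The 8 removed were Isg15, Irf7, Oas1a, Oasl1, Rsad2, Ifi27l2a, Cmpk2 and Ifit3b, with 21 to 69 reads each over all 9 libraries. They include genes that cells responding to interferon usually express strongly. Isg15, the ubiquitin-like protein that is joined to other proteins, had 6, 1, 4 and 2 reads in wild-type libraries 1 to 4 and 0, 2, 20, 0 and 2 reads in Tau-P301L libraries 1 to 5. Of its 37 reads 20 thus came from Tau-P301L library 3. Irf7, which amplifies interferon production, had 9, 9, 4 and 5 reads in wild-type and 9, 9, 9, 5 and 3 reads in Tau-P301L libraries. The groups overlap in CPM, although Tau-P301L libraries 2 and 3 lie above every wild-type library and wild-type libraries 3 and 4 below every Tau-P301L library.

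The sequence that the pathway acts on was looked up in a window from 250 bases before to 50 after each annotated start in RefSeq (build GRCm38.p6). A window was found for 36 members. The ISRE core GAAANNGAA, on either strand, was present in a window of 21 of these 36 members (58.3%), against 9.76% of the 27025 genes with a window and 8.89% of the 9018 that were also tested. The core of the gamma-activated site, TTCNNNGAA, which reads the same on both strands, was present for 11 of 36 members (30.6%), against 9.55% of genes. These are matches of letters and not evidence of binding. The windows of 5 members are shown because they cover the leading members by genotype that have one (Ifit1, Herc6, Ifi207), the member with the largest difference between the sexes (Oas3) and the best known target of the pathway (Isg15). Capitals mark the ISRE core, and where cores overlap they form 1 longer run.
Ifit1: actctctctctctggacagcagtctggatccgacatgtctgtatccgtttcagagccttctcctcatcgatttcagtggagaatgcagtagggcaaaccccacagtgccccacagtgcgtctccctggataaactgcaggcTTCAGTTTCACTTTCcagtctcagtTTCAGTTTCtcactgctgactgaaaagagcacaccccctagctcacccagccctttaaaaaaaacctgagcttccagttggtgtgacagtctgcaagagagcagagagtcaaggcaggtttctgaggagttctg
Ifi207: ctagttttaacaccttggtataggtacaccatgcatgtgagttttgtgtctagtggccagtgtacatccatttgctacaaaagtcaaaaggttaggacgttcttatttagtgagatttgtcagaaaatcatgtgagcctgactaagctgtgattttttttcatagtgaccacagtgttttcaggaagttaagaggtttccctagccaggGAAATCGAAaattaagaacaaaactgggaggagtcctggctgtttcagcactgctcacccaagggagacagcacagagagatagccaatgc
Herc6: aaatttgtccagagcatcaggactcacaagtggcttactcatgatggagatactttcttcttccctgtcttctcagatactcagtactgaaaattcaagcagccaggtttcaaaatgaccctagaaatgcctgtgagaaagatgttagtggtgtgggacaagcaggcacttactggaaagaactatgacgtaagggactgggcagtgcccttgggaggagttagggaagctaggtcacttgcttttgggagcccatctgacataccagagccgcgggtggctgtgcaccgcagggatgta
Oas3: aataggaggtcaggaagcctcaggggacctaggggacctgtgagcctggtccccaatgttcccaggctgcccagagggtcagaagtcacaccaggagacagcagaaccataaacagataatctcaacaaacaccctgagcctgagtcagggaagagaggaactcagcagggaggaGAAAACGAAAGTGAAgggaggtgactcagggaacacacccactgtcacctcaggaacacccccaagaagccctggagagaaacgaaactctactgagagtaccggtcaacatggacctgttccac
Isg15: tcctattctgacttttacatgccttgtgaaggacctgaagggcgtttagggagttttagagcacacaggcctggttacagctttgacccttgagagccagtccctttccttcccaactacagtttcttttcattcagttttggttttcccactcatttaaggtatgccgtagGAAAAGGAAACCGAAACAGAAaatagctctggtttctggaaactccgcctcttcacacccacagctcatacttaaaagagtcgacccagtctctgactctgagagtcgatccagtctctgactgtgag

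The window of Ifit1 is chr19:34640639-34640938 on the plus strand, with ISRE cores that begin 109, 103 and 84 bases before the start. That of Ifi207 is chr1:173741760-173742059 (minus), with 1 core 41 bases before the start, and that of Herc6 is chr6:57580742-57581041 (plus), with none of these letters. For Oas3 the window is chr5:120777610-120777909 (minus), with overlapping cores 75 and 69 bases before the start. For Isg15 it is chr4:156200769-156201068 (minus), with cores 78, 72 and 66 bases before. The median log2 fold change of Tau-P301L over wild-type was 0.15 over the 17 tested members with a core and 0.19 over the 12 without.

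The central question was whether interferon response genes differ between brain myeloid cells of mice with mutant tau and those of littermates. No member passed an adjusted p of 0.05 in edgeR (quasi-likelihood test, sex as an additive term), where 0.00816% of the 12250 genes tested passed. With an unadjusted p under 0.05, 5 members were higher in Tau-P301L (Ifit1, Herc6, Zbp1, Ifi204 and Ifi207), against 3.56% of all genes, and 0 were lower, against 2.79% of all genes. DESeq2 called 1 member past an adjusted p of 0.05, which was Ifit1, against 0.22% of all genes, and limma-voom called 0. In bulk samples, fewer cells of a type and less RNA per cell cannot be told apart. The groups did not overlap for 2 members, Ifit1 and Zbp1, both higher in Tau-P301L (1.31% of all genes), and 0 members were fully lower (1.18%). Of the 39 tested members 23 had a higher and 16 a lower estimate, with a median log2 fold change of 0.16, where 49.9% of all genes were higher and their median was 0.00. Without the 5 leading members the median of the other 34 was 0.08. The median over the tested members was -0.0015 without Tau-P301L libraries 3 and 5, -0.0031 in females alone and 0.37 without wild-type library 2. Tau-P301L libraries 3 and 5 are both male, so without them library 4 is the only Tau-P301L male, and that fit is not separate from sex. The low-count filter was run again in these fits, so the members tested are not all the same.

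**Figure D1:**
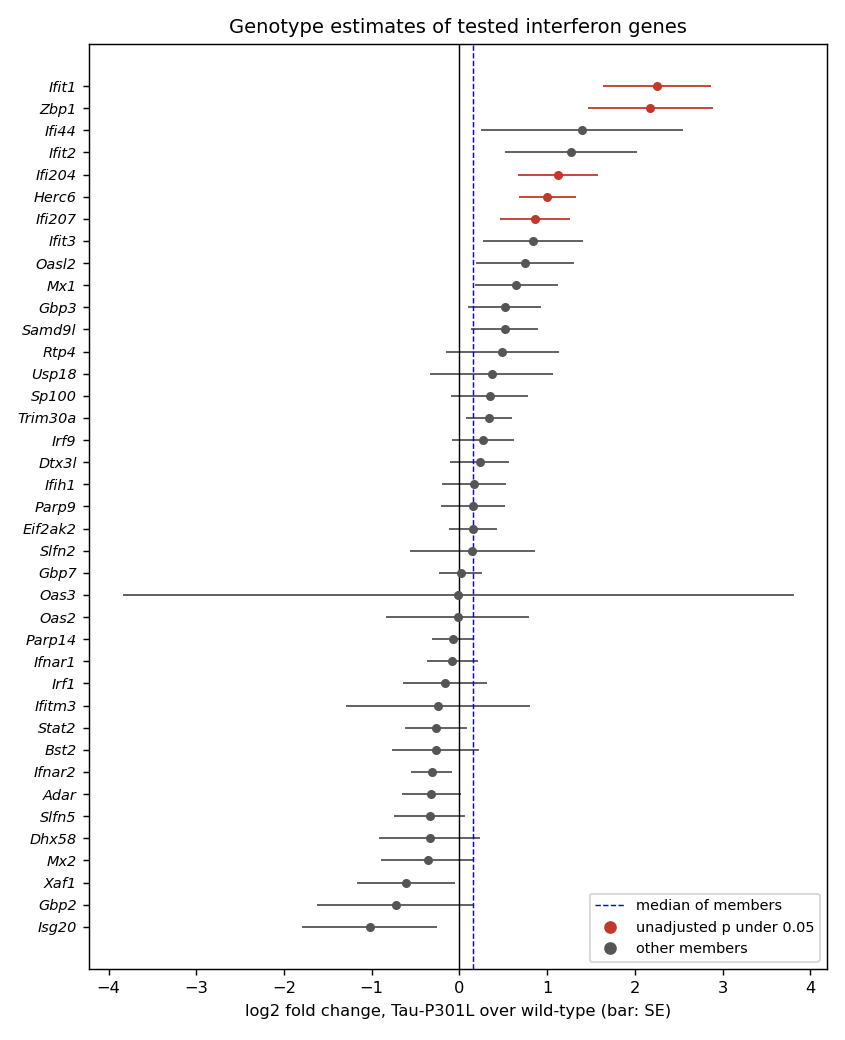
Log2 fold change of Tau-P301L over wild-type (x axis) for the 39 tested members, with bars for 1 standard error, the median of the members as a dashed line, and members of unadjusted p under 0.05 in red. Ifit1 at 2.25 and Zbp1 at 2.17 lead, and most other members lie within 1 log2 unit of 0. The long bar belongs to Oas3 (SE 3.82), where this SE is a ratio of 2 values near 0 and is not reliable.

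Among the receptor chains, levels were close between the groups. Ifnar1 stood at 252.5, 92.6, 184 and 118 CPM in wild-type libraries 1 to 4 and at 139, 157, 196, 165 and 102.5 CPM in Tau-P301L libraries 1 to 5, with the full Tau-P301L range inside the wild-type range. In edgeR its log2 estimate was -0.08 (SE 0.29, adjusted p = 0.969). Ifnar2 stood at 159, 207, 129 and 129 CPM in wild-type and at 134.5, 150.1, 121, 125.5 and 71.3 CPM in Tau-P301L libraries, where the groups overlap and the shallow library 5 is lowest (-0.32, SE 0.24, adjusted p = 0.827). Per gene length, on the deposited RPKM scale, Ifnar2 ranked first of the 47 members by the mean of both group means. Its level was 11.96 ± 2.83 RPKM in wild-type (SD, n = 4) and 9.30 ± 2.18 RPKM in Tau-P301L (SD, n = 5). Trim30a (7.93 ± 2.43 and 9.82 ± 2.44 RPKM) and Ifnar1 (5.51 ± 2.43 and 5.24 ± 1.22 RPKM) followed. In the Tau-P301L group alone the mean of Trim30a was above that of Ifnar2. In the Tau-P301L group Ifnar2 and Trim30a lie within each other's SD while Ifnar1 lies below both, and in wild-type the SD ranges of Trim30a overlap with those of both neighbours. On the same scale Isg15 stood at 0.341 ± 0.234 RPKM in wild-type and 0.728 ± 1.26 RPKM in Tau-P301L libraries.

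The factors that carry the signal did not separate the groups either. Stat2 stood at 37.1, 94.7, 57.3 and 44.2 CPM in wild-type and at 28.3, 43.9, 56.9, 80.6 and 42.2 CPM in Tau-P301L libraries (log2 fold change -0.27, SE 0.36, edgeR adjusted p = 0.916). Irf9, its DNA-binding partner, stood at 20.1, 44.3, 26.9 and 34.6 CPM in wild-type and 51.0, 29.0, 49.8, 22.9 and 36.0 CPM in Tau-P301L libraries (0.27, SE 0.35, adjusted p = 0.913). Irf1, a factor that interferon-gamma induces, stood at 10.6, 9.81, 18.2 and 11.8 CPM in wild-type and 12.0, 12.0, 3.56, 15.3 and 13.2 CPM in Tau-P301L libraries (-0.17, SE 0.48, adjusted p = 0.962). For all of these the groups overlap. Wild-type library 2 was the highest library of its group for Stat2 and Irf9, and Tau-P301L library 3, high for many effectors, was the lowest of all for Irf1.

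The sensors of nucleic acids held 3 of the 5 leading members. Zbp1, which binds Z-form nucleic acid and can start cell death, stood at 3.65, 2.03, 1.14 and 1.37 CPM in wild-type libraries 1 to 4 and at 4.41, 9.21, 17.3, 11.4 and 4.15 CPM in Tau-P301L libraries 1 to 5. The groups do not overlap, but they nearly touch at wild-type library 1 and Tau-P301L libraries 1 and 5. In edgeR the log2 estimate was 2.17 (SE 0.71, adjusted p = 0.658), and 2.01 without Tau-P301L libraries 3 and 5. It rests on 12, 6, 3 and 5 reads in wild-type and 14, 26, 39, 27 and 6 reads in Tau-P301L libraries.

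Ifi204 and Ifi207 are neighbours in the cluster of Ifi200 genes on chromosome 1, which encode DNA-binding proteins of innate immunity. Ifi204 stood at 12.2, 27.0, 5.31 and 15.9 CPM in wild-type and 44.7, 19.1, 38.7, 18.2 and 34.6 CPM in Tau-P301L libraries, where wild-type library 2 lies above Tau-P301L libraries 2 and 4 (log2 fold change 1.12, SE 0.45, edgeR adjusted p = 0.749). Ifi207 stood at 59.6, 57.1, 15.2 and 52.7 CPM in wild-type and 51.3, 81.4, 98.3, 50.03 and 134 CPM in Tau-P301L libraries (0.86, SE 0.40, adjusted p = 0.776). Its lowest value by far was in wild-type library 3, and without that library its log2 fold change was 0.45. Without Tau-P301L libraries 3 and 5 the estimates were 0.72 for Ifi204 and 0.33 for Ifi207, and neither had an unadjusted p under 0.05. Ifi203, a gene of the same family that was picked out after its values were seen, averaged 39.1 ± 16.0 CPM in wild-type and 69.9 ± 42.6 CPM in the Tau-P301L group (SD, n = 4 and 5, log2 fold change 0.82, SE 0.45, edgeR adjusted p = 0.789). Genes of this family share sequence: 30.2% of the 50-base stretches of the longest Ifi204 transcript also occur in transcripts of other genes, most of them in Ifi211, so reads counted for 1 of them are uncertain. For Ifi207 that share was 7.39%. Aim2, the DNA sensor of the inflammasome and a further member of the family, was far more abundant and close between the groups (336 ± 50.5 and 361 ± 98.6 CPM, 0.11, SE 0.23, adjusted p = 0.945).

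The other 4 sensors had estimates from -0.34 to 0.17, each within its SE of 0, with Dhx58 and Adar below 0. Ifih1, the sensor of long double-stranded RNA, stood at 0.17 (SE 0.36) and its regulator Dhx58 at -0.34 (SE 0.57). Eif2ak2, the kinase that stops translation on double-stranded RNA, stood at 0.15 (SE 0.27). Adar, which edits adenosine in double-stranded RNA, stood at 36.8, 56.8, 25.4 and 40.9 CPM in wild-type and 28.3, 44.3, 18.2, 36.9 and 27.0 CPM in Tau-P301L libraries, with overlapping groups (-0.32, SE 0.34, edgeR adjusted p = 0.881).

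The Ifit family, which binds viral RNA and blocks its translation, had the largest median of any role, a log2 fold change of 1.27 over 3 tested members. All 3 estimates were above 0 over the 9 libraries, but that of Ifit3 was -0.175 without Tau-P301L libraries 3 and 5. Ifit1 stood at 2.74, 3.72, 2.66 and 1.92 CPM in wild-type libraries 1 to 4 and at 9.13, 8.497, 22.2, 5.94 and 27.0 CPM in Tau-P301L libraries 1 to 5. Every Tau-P301L library was above every wild-type library, and male libraries 3 and 5 were highest. These levels rest on 9, 11, 7 and 7 reads in wild-type and 29, 24, 50, 14 and 39 reads in Tau-P301L libraries. The groups are thus closest at wild-type library 2 (11 reads) and Tau-P301L library 4 (14 reads). In edgeR the log2 estimate was 2.25 (SE 0.62, adjusted p = 0.505), while DESeq2 gave 2.28 with an adjusted p of 0.0496. Leaving out any 1 library gave 1.94 to 2.49, and without both Tau-P301L libraries 3 and 5 the value was 1.41 (edgeR adjusted p = 0.992).

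Ifit2 stood at 2.43, 9.81, 0 and 5.49 CPM in wild-type and 13.9, 4.60, 9.34, 11.0 and 11.8 CPM in Tau-P301L libraries, where Tau-P301L library 2 falls below 2 wild-type libraries (1.27, SE 0.75, edgeR adjusted p = 0.789). Ifit3 stood at 16.4, 19.3, 6.07 and 4.94 CPM in wild-type and 31.5, 9.91, 20.9, 2.54 and 22.2 CPM in Tau-P301L libraries, with Tau-P301L library 4 the lowest of all 9 (0.84, SE 0.57, adjusted p = 0.804). Ifit3b, a near copy of Ifit3, did not pass the filter and had 1, 4, 0 and 4 reads in wild-type and 2, 1, 23, 2 and 32 reads in Tau-P301L libraries. Of its 69 reads 23 and 32 came from Tau-P301L libraries 3 and 5. Of the 50-base stretches of the longest Ifit3 transcript 51.2% also occur in Ifit3b, so reads from these genes can be lost or misplaced by unique alignment.

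**Figure D2:**
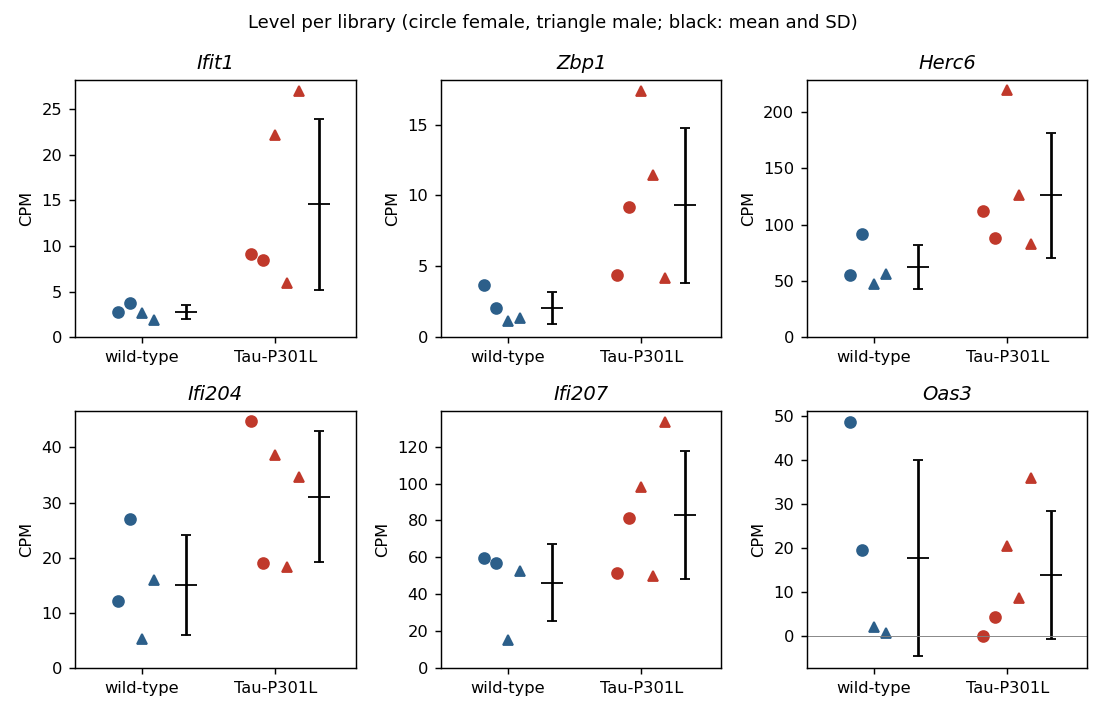
Level in CPM after TMM scaling (y axis, a separate scale for each gene) in each wild-type and Tau-P301L library for the 5 leading members and Oas3, with circles for females, triangles for males and black bars for the group mean and SD (n = 4 and 5). The groups do not overlap for Ifit1 and Zbp1, and for Oas3 the sexes go opposite ways.

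Genes of the ISG15 system and the ubiquitin ligases had 5 of 6 tested members above 0. Herc6, the ligase that joins Isg15 to its targets in mice, stood at 55.0, 91.3, 47.4 and 56.3 CPM in wild-type and 112, 88.2, 220.1, 127 and 83.1 CPM in Tau-P301L libraries. Wild-type library 2 overlaps with Tau-P301L libraries 2 and 5, and Tau-P301L library 3 is the highest. Its log2 estimate in edgeR was 0.999 (SE 0.32, adjusted p = 0.657). Herc6 is the best measured of the leading members, with 2301 reads in all. Without Tau-P301L library 3 it was 0.74, and without libraries 3 and 5 it was 0.80. The gene model Gm45193 overlaps Herc6 on the same strand and holds 23.8% of its 50-base stretches. The other members of this role were Usp18, which removes Isg15 (0.37, SE 0.70), Trim30a (0.34, SE 0.26), Dtx3l (0.23, SE 0.33), its partner Parp9 (0.16, SE 0.37) and Parp14 (-0.07, SE 0.24). Dtx3l and Parp9 overlap on opposite strands only at their starts (chr16:35938470-35939151), and reads in that stretch cannot be told apart without strand.

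In the Oas family, whose enzymes make 2-5A and so activate RNase L, Oas3 went opposite ways in the sexes. It stood at 48.6 and 19.6 CPM in the wild-type females and 0 and 4.25 CPM in the Tau-P301L females, but at 1.90 and 0.549 CPM in the wild-type males and 20.5, 8.48 and 36.0 CPM in the Tau-P301L males. Neither sex overlaps between the genotypes, and the direction is opposite. Over both sexes edgeR gave an estimate of -0.01 (SE 3.82, adjusted p = 0.999). That SE is a ratio of 2 values near 0 and is not a reliable spread. The sex term of Oas3 in the same fit had an SE of 2.34. Oas2 stood at 11.9, 58.2, 1.52 and 8.51 CPM in wild-type and 4.09, 20.2, 13.3, 11.0 and 18.7 CPM in Tau-P301L libraries (-0.02, SE 0.82, adjusted p = 0.999). Oasl2, a relative that also carries ubiquitin-like domains, stood at 38.0, 59.8, 11.0 and 24.4 CPM in wild-type and 28.7, 44.3, 131, 25.9 and 29.8 CPM in Tau-P301L libraries, with an estimate of 0.75 (SE 0.56, adjusted p = 0.830). Without Tau-P301L library 3 that estimate was 0.09.

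The Mx and guanylate-binding GTPases were mixed. Mx1 stood at 6.38, 14.2, 4.93 and 15.9 CPM in wild-type and 17.0, 17.7, 23.1, 14.0 and 9.001 CPM in Tau-P301L libraries (log2 fold change 0.65, SE 0.47, edgeR adjusted p = 0.822), with overlap at Tau-P301L libraries 4 and 5. Mx2 had an estimate of -0.36 (SE 0.53). Gbp3 had one of 0.52 (SE 0.42), Gbp7 one of 0.01 (SE 0.25) and Gbp2 one of -0.73 (SE 0.89), the last at 4.28 ± 3.03 CPM in wild-type and 2.22 ± 1.93 CPM in the Tau-P301L group (SD, n = 4 and 5).

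The other effectors had 5 tested members above 0 and 5 below, with a median of -0.05. Ifi44, which limits cell growth, had the largest estimate, 1.39 (SE 1.15), with 20.9 CPM in Tau-P301L library 3 and 8.11 CPM in wild-type library 2 against at most 6.92 CPM elsewhere. Rtp4, a chaperone of receptors that also binds flavivirus RNA, stood at 17.3, 26.7, 0.759 and 10.7 CPM in wild-type and 14.8, 11.0, 28.9, 11.0 and 16.6 CPM in Tau-P301L libraries (0.49, SE 0.65, edgeR adjusted p = 0.915). Isg20, an RNA exonuclease, had the lowest estimate of all members, -1.02 (SE 0.77, adjusted p = 0.830), with 3.65, 3.04, 10.2 and 3.30 CPM in wild-type and 3.78, 1.42, 0.889, 1.27 and 4.85 CPM in Tau-P301L libraries. Its high value in wild-type library 3 stands against the lowest level of many other members there. Xaf1, which promotes apoptosis, stood at 3.04, 18.3, 20.1 and 9.61 CPM in wild-type and 7.56, 7.44, 13.3, 10.6 and 2.77 CPM in Tau-P301L libraries (-0.61, SE 0.56, adjusted p = 0.862).

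The membrane proteins Bst2, which tethers budding virus, and Ifitm3, which blocks viral entry and also modulates gamma-secretase, showed no separation. Bst2 stood at 13.4, 13.2, 19.7 and 4.94 CPM in wild-type and 14.5, 5.66, 13.8, 7.21 and 11.8 CPM in Tau-P301L libraries (-0.27, SE 0.50, edgeR adjusted p = 0.939). Ifitm3 stood at 9.12, 6.76, 0 and 3.57 CPM in wild-type and 0.315, 3.89, 1.78, 4.24 and 8.31 CPM in Tau-P301L libraries (-0.24, SE 1.04, adjusted p = 0.975), which is within a few reads of the depth limit in several libraries. Of the rest, Samd9l (0.52, SE 0.38), Sp100 (0.34, SE 0.44) and Slfn2 (0.15, SE 0.71) were above 0 and Slfn5 (-0.34, SE 0.40) below.

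Some single libraries stood apart across the members. Each member's log2 CPM was set against the mean of both group means, and the median over the 39 tested members was taken per library. It was -0.10, 0.47, -0.62 and -0.05 in wild-type libraries 1 to 4 and 0.17, 0.05, 0.52, 0.06 and 0.12 in Tau-P301L libraries 1 to 5. Wild-type library 2, from a female, was thus nearly as high as Tau-P301L library 3, from a male, and wild-type library 3 was lowest. Tau-P301L library 3 was the highest library for 11 of 39 members (28.2%, against 17.2% of all genes) and wild-type library 2 for 9 (23.1%, against 8.96%). Wild-type library 3 was the lowest for 14 (35.9%, against 13.9%). Wild-type library 2 held the highest value of Stat2, Parp14 and Oas2, and Tau-P301L library 3 that of Zbp1, Herc6, Oasl2, Ifi44 and Rtp4. Monocyte markers summed to 79.5 CPM in wild-type library 2 and 26.2 CPM in wild-type library 3, the highest and lowest of the 9 libraries, with 42.2 to 78.7 CPM in Tau-P301L libraries. Most of the sum in those 2 libraries was Ccr2, while Ly6c2 had no read in either. Of the 6 monocyte markers 3 were tested and 1, Vcan, had an unadjusted p under 0.05, higher in Tau-P301L (3.56% of all genes). At that level 2 of 10 microglial markers (median log2 fold change -0.26) and 1 of 6 oligodendrocyte markers were lower (2.79% of all genes), and 1 of 4 tested immediate early genes was higher. Immediate early genes are a known response to cell isolation. The summed level of 6 of them was highest in Tau-P301L library 3 (142.7 CPM, against 44.6 to 111.5 CPM elsewhere). Most of that sum was 1 gene. Dusp1 was also highest there (14.2 CPM), but Jun (25.8 CPM) and Junb (18.7 CPM) were lower than in wild-type library 1 (70.2 and 31.3 CPM). The mitochondrial share of reads was highest in Tau-P301L library 3 as well (23.1%, against 9.30 to 20.0%). The part of these in the members' levels was not tested.

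**Figure D3:**
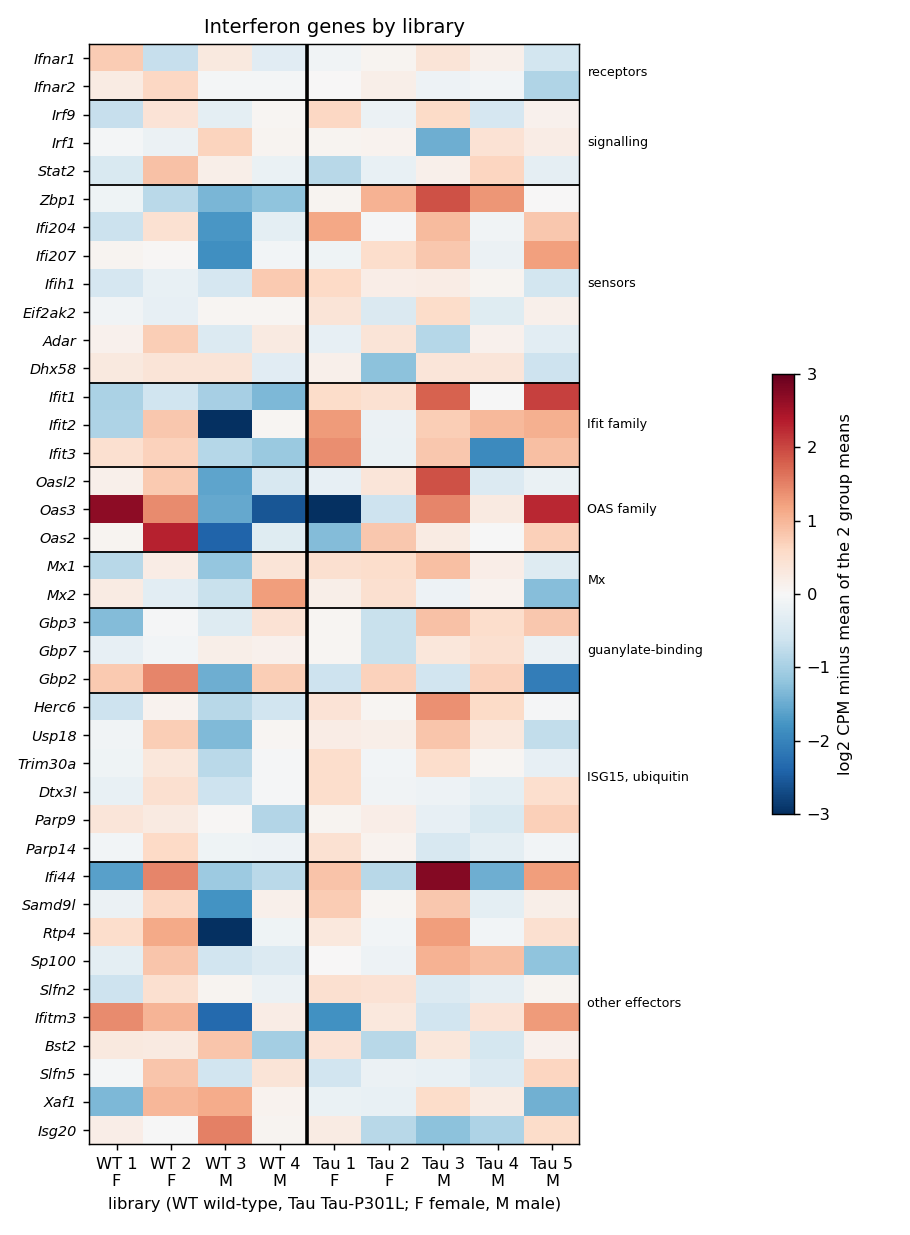
Log2 CPM of the 39 tested members (rows, grouped by role) in each library (columns), minus the mean of both group means, from -3 in blue to 3 in red. Wild-type library 3 is mostly blue and Tau-P301L library 3 and wild-type library 2 mostly red, while Ifit1 is blue in all 4 wild-type libraries and between -0.01 and 2.05 in the 5 Tau-P301L libraries.

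Because both sexes were in both groups, the genotype difference could be set against sex. In the fit with the product of genotype and sex, 18 of 39 members had a higher estimate in Tau-P301L females (median -0.10) and 28 of 39 in Tau-P301L males (median 0.45), where the medians over all genes were 0.01 and 0.01. The difference between the sexes had a median of 0.65 over the members, with 29 of 39 larger in males, against a median of 0.00 over all genes. None passed an adjusted p of 0.05 for the interaction in edgeR, as for 0% of all genes. At an unadjusted p under 0.05 there were 4 members larger in males (Oas3, Oas2, Oasl2 and Rtp4), against 2.23% of all genes, and 0 larger in females, against 1.58%. DESeq2 called 1 member, Oas3, and 4 of all 12250 genes tested.

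Oas3 had an interaction of 8.16 on the log2 scale (SE 1.48, edgeR adjusted p = 0.250, DESeq2 adjusted p = 1.85e-05), from -4.01 in females to 4.15 in males. It rests on 160, 58, 0 and 12 reads in the 2 wild-type and 2 Tau-P301L females, and 5, 2, 46, 20 and 52 reads in the 2 wild-type and 3 Tau-P301L males. Leaving out any 1 library gave 7.13 to 13.66, with an edgeR adjusted p of 0.0153 without Tau-P301L library 2 and 0.0284 without Tau-P301L library 4, and above 0.05 without any other. Without library 2 the Tau-P301L females are 1 library with 0 reads, so the value of 13.66 depends on the fit's prior count and is no bound. The next 3 were Oas2 (2.99, SE 1.18), Rtp4 (2.44, SE 1.10) and Oasl2 (2.23, SE 0.90), each with an edgeR adjusted p of 0.999. Only Oas3 and Rtp4 had every Tau-P301L female below every wild-type female and every Tau-P301L male above every wild-type male, a pattern of 1.27% of all genes. For Rtp4 the males nearly touch, at 10.7 CPM in wild-type library 4 and 11.0 CPM in Tau-P301L library 4. Every Tau-P301L male lay above every wild-type male for 10 of 39 members, against 9.97% of all genes, and every Tau-P301L female above every wild-type female for 5, against 17.1%.

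**Figure D4:**
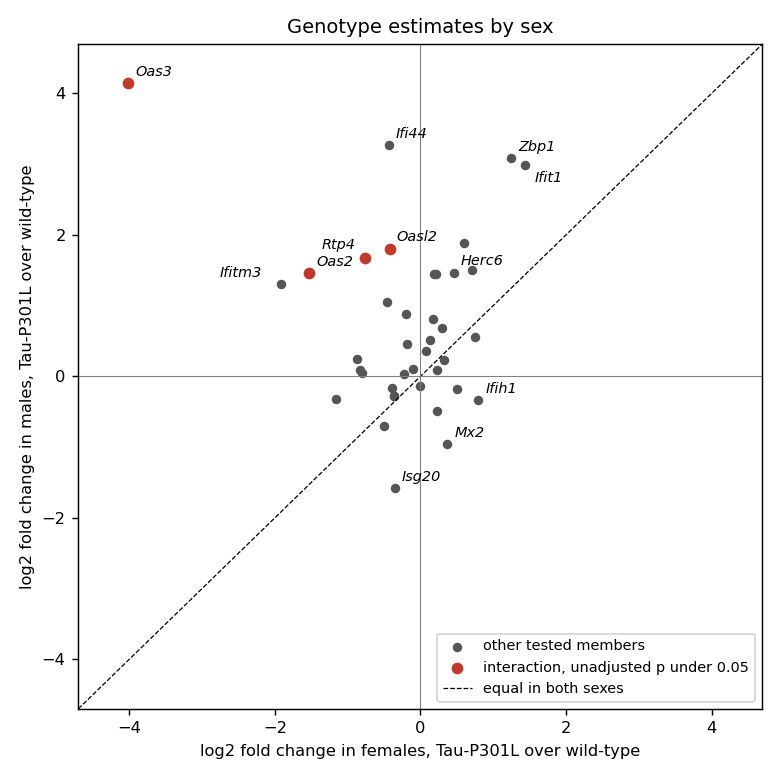
Log2 fold change of Tau-P301L over wild-type in females (x axis) and males (y axis) for the 39 tested members, with members of unadjusted interaction p under 0.05 in red and a dashed line where both sexes are equal. Of the 39 points 29 lie above the line, Oas3 is far to the upper left at -4.01 and 4.15, and Ifit1 and Zbp1 are above 0 in both sexes.

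The difference between the sexes moved with single wild-type libraries. Without wild-type library 2, the high female, the median interaction was 0.26 over 44 members. Without wild-type library 3, the low male, it was 0.49 over 46 members, and without wild-type library 1 it was 1.08 over 46 members. The low-count filter was run again in each of these fits and let in members of few reads. The medians are therefore not over the same 39 members as the 0.65, and the part of the added members in the change was not tested. Ifit1 and Zbp1 were among those higher in both sexes, at 1.44 and 1.24 in females and 2.98 and 3.09 in males (interaction SE 1.16 and 1.33). For sex itself, over both genotypes, 0 members passed in edgeR, against 0.049% of all genes. At an unadjusted p under 0.05 there was 1 member, Parp14, higher in females (log2 of male over female -0.52), against 1.05% of all genes, and 0 higher in males, against 1.38%.

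A second list of 78 interferon-related genes outside the members had 58 that passed the filter. Of these 0 passed an adjusted p of 0.05 in edgeR, 4 were higher at an unadjusted p under 0.05 (3.56% of all genes) and 0 lower (2.79%). The median log2 fold change was 0.10, with 36 estimates above 0 and 22 below, where 49.9% of all genes were above 0. The smallest p in the higher direction belonged to Cd274, the checkpoint ligand PD-L1, which stood at 25.5, 14.5, 15.6 and 27.5 CPM in wild-type and 48.5, 37.5, 29.3, 69.1 and 53.3 CPM in Tau-P301L libraries. The groups do not overlap, as for 1.31% of all genes in this direction (log2 fold change 1.17, SE 0.36, edgeR adjusted p = 0.593), and its highest value was not in Tau-P301L library 3 but in library 4. Tor3a, an interferon-induced ATPase, followed at 0.9998 (SE 0.41) and Trim34a at 0.85 (SE 0.35). In the lower direction Znfx1, a helicase that senses double-stranded RNA, stood at -0.55 (SE 0.30), Nmi at -0.77 (SE 0.43) and Irf5, a factor of Toll-like receptor signalling, at -0.53 (SE 0.35).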

How the data were processed

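RNA-seq of sorted Cd11b+ brain myeloid cells was deposited as 1 table per library, with Entrez gene numbers. GSNAP and GRCm38 are named in the submitters' processing notes. Versions, annotation and strand setting: not given in the sources used here. Per the file headers, each count is the number of uniquely aligning reads in a gene model. RPKM values, adjusted by the authors with 1 size factor per library, were also deposited and used to compare levels between genes and to recover those factors.

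Symbols and positions came from RefSeq (GRCm38.p6), and overlaps and transcripts from GENCODE on GRCm38. All 47 members matched a gene number. The test was edgeR 4.0.16 (R 4.3.3, quasi-likelihood, TMM, default low-count filter, robust dispersions, sex as an additive term, Benjamini-Hochberg over 12250 genes, 6 residual degrees of freedom). Standard errors come from the F statistic. DESeq2 1.42.0, limma-voom (limma 3.58.1), other scalings and filters, and left-out libraries were alternatives. The steps were tested on simulated data. No pair of libraries had counts close enough to be 1 library deposited in duplicate (smallest chi-square over its degrees of freedom 10.5), which does not show that they are separate mice.

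The members and lists were chosen with earlier results of these data known. Values in every library are given for the 8 members of smallest p with higher and the 4 with lower estimates, the 4 of smallest interaction p, and Ifnar1, Ifnar2, Stat2, Irf9, Irf7, Irf1, Isg15, Ifitm3 and Bst2. From the second list the 3 of smallest p in each direction are named. The rule takes a further gene of that list, and the marker lists hold a gene, that are not reported here. Aim2, Ifi203 and the members named with an estimate alone were named outside that rule.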

Additional observations from a re-analysis of the deposited data

Results flagged for a closer look

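In 96 checks of a group's libraries for 1 value far from the rest, 13 stood out. The cut-off is set for 1 in 20 by chance with independent, normally distributed values. CPM need not be so distributed and the checks share the same libraries, so an excess over chance is not shown. Tau-P301L library 3 stood apart in the median of the members (0.52 on the log2 scale, others 0.05 to 0.17), in Oasl2 (131 CPM, others 25.9 to 44.3) and in Irf1, where it was low (3.56 CPM, others 12.0 to 15.3). Wild-type library 2 was high for Ifi44 (8.11 CPM, others 0.304 to 1.10), Parp14 (182 CPM, others 107 to 112) and Sp100 (76.8 CPM, others 28.1 to 34.3). Wild-type library 3 was high for Isg20 (10.2 CPM, others 3.04 to 3.65) and low for Ifi207 (15.2 CPM, others 52.7 to 59.6). Wild-type library 4 was high for Ifih1 (59.0 CPM, others 23.4 to 28.7) and low for Dhx58 (5.22 CPM, others 8.51 to 9.13), and Tau-P301L library 5 was high for Slfn5 (38.1 CPM, others 15.7 to 21.2). The neutrophil marker sum stood out in Tau-P301L library 4 (253.5 CPM, others 1.26 to 5.54) and the oligodendrocyte marker sum in Tau-P301L library 5 (1428 CPM, others 325 to 565).

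The genotype difference went opposite ways in the sexes for Oas3 (interaction 8.16 on the log2 scale) and Rtp4 (2.44), with every library of each sex on its side. For Rtp4 the males nearly touch, at 10.7 CPM in wild-type library 4 and 11.0 CPM in Tau-P301L library 4. The other wild-type male, library 3, had 2 Rtp4 reads. The interaction passed an adjusted p of 0.05 in DESeq2 for Oas3 and for neither in edgeR.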

How the results depend on the processing

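No paired analysis was possible because the labels give no replicate numbers. With edgeR 0 members passed for genotype, leaving out any 1 library included (0 to 0), and DESeq2 called 1 (0.22% of all genes). Members higher at an unadjusted p under 0.05 numbered 5, against 3.56% of all genes. They numbered 0 in females alone (2.7% of all genes) and 9 in males alone (3.6%). Without Tau-P301L libraries 3 and 5, where library 4 is the only Tau-P301L male, there were 3 (2.32%). With 1 library left out the count went from 3 without wild-type library 3 (1.92%) to 8 without wild-type library 2 (3.6%). These fits ran the low-count filter again, so the members tested are not all the same. The 9 and the 8 each include Ifit3b, which the main filter removed. Most of its reads are from Tau-P301L males 3 and 5, so it passed through the group where it is high. Members lower at an unadjusted p under 0.05 numbered 2 in females alone, Oas3 and Oas2. The share of all genes lower in females alone is not given here. The 2.79% of the fit of both sexes is from other libraries and is not a like comparison. Ifit1, Herc6 and Zbp1 stayed under it in all 9 fits that left out 1 library, Ifi204 in 6 and Ifi207 in 4. The members' median of 0.16 was -0.0031 in females alone, 0.52 in males alone, -0.0015 without Tau-P301L libraries 3 and 5, and 0.10 to 0.37 with 1 library left out. For the interaction edgeR called 0 members (0 to 1 with 1 library left out) and DESeq2 1, where DESeq2 called 4 of all 12250 genes. The median interaction of 0.65 over 39 members went from 0.26 to 1.08 with 1 library left out, where 40 to 46 members passed the filter. Estimates of named members kept their sign and side of the threshold in 443 of 479 alternatives. Signs changed for Oas3 (0.17 in DESeq2, 4.14 in males, and -2.07 to 2.09 with 1 library left out), Oas2 (0.044 in DESeq2, 1.49 in males, -0.70 to 0.90), Ifnar1 (0.040 in males, -0.26 to 0.25), Stat2 (0.25 in males, -0.49 to 0.15), Ifitm3 (1.33 in males, -1.02 to 0.50), Bst2 (-0.60 to 0.18), Irf1 (0.23 in females, 0.15 without libraries 3 and 5, -0.30 to 0.083), Rtp4 (-0.77 in females, -0.12 without libraries 3 and 5, -0.16 to 0.91), Oasl2 (-0.43 in females, -0.049 without libraries 3 and 5) and Ifit3 (-0.175 without libraries 3 and 5). Why was not tested. Depth limits members under about 5 CPM, where a library holds few reads.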
